A study of Mus musculus with 2 samples.

Results

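The genes described here are the enzymes that write, copy and remove DNA methylation, with their closest helpers: Dnmt1, Dnmt3a, Dnmt3b, Dnmt3l, Tet1, Tet2, Tet3, Uhrf1, Uhrf2 and Tdg. They were chosen by name, not by a measured value, though earlier results of these data were known. They are 10 of the 43346 gene entries in the deposited tables. Each of the 10 was found by its symbol in GENCODE M21. RNA came from G1E, an immortalised mouse line of male cells that the labels call a Gata1- erythroid progenitor, that is, an early red cell precursor lacking GATA1 function. There were 2 paired-end libraries of polyadenylated RNA, named replicate 1 and replicate 2, in 1 untreated group of 1 line. The labels cite the same cell sample for both, so the spread between them may be technical. Nothing was compared with it, and DNA methylation itself was not measured.

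In mammals a methyl group is placed on cytosine where it precedes guanine. DNMT3A and DNMT3B place it on unmethylated DNA, while UHRF1 brings DNMT1 to newly copied DNA to restore the pattern on the new strand. The TET enzymes oxidise the methyl group, and TDG cuts out the oxidised bases so that repair puts back plain cytosine. In blood, DNMT3A and TET2 are known for their roles in stem cells and for frequent mutation in leukaemia, and erythroid maturation is known for a broad loss of DNA methylation.

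Replicate 1 held 61982634 expected counts (read pairs as the authors' model assigned them) and replicate 2 held 80658648. A count of 0 allows up to 3 counts, or 0.0484 and 0.0372 CPM in replicates 1 and 2, a limit that covers counting error only. The exact two-sided 95% Poisson intervals given for single genes are wider, and for 0 counts such an interval ends at 3.69. All 10 erythroid progenitor markers examined reached 1 TPM in both libraries, Gata1 among them at 48.0 and 46.6 TPM, although the line is labelled Gata1-. TPM is abundance per length of transcript, scaled to the same total in each library, and it is the scale used for levels. Over all protein-coding genes 40.0% were detected at 1 TPM in both. Of markers of other cells, 0 of 4 for B cells, 0 of 6 for macrophages and neutrophils and 0 of 3 for fibroblasts were. For T cells 1 of 6 was, Lck at 1.82 and 1.35 TPM, with Cd3e at 0 counts. For pluripotent cells 1 of 9 was, Dppa4 at 9.02 and 11.47 TPM, and the other 8, including Pou5f1, Nanog and Sox2, had 0 counts in both. Of the lineages near erythroid cells, 3 of 4 megakaryocyte markers were detected (Gp5 at 33.3 and 32.6 TPM, Itga2b and Pf4) and 2 of 4 mast cell markers (Kit, also an erythroid marker, and Cpa3). The part of such cells in the values below was not tested.

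Of the 10 genes, 7 were detected, which means 1 TPM or more in both libraries. The share detected over all protein-coding genes was 40.0% (8581 of 21474), and over all gene entries it was 21.1%. The other 3, Dnmt3a, Dnmt3l and Tet1, were under 0.1 TPM in both libraries, as were 52.1% of protein-coding genes. The DNMT and TET families each had members at both ends of the scale. The maintenance pair Dnmt1 and Uhrf1 stood highest, Dnmt3b was the de novo enzyme detected, and Tet3 made up nearly all of the TET RNA.

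**Figure D1:**
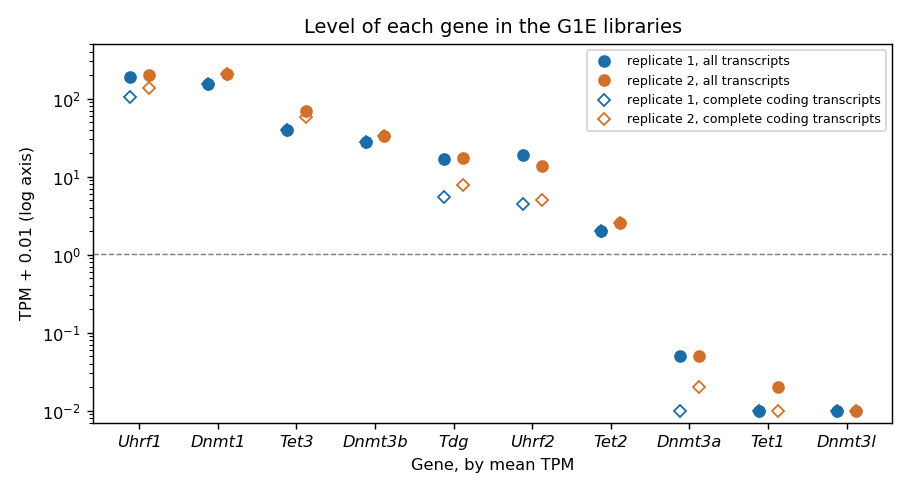
Level of each of the 10 genes in the 2 libraries, as TPM + 0.01 on a log axis. Filled circles are all transcripts of the gene, open diamonds are transcripts with a complete coding sequence, and the dashed line is 1 TPM. Uhrf1 and Dnmt1 lie at 155 TPM or more in both libraries, while Dnmt3a, Tet1 and Dnmt3l lie under 0.1.

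Uhrf1, which binds hemimethylated DNA behind the replication fork and recruits DNMT1, was at 189 TPM in replicate 1 and 200.5 TPM in replicate 2 (195 ± 8.05, SD, n = 2). These levels came from 24033 and 36742 expected counts. Dnmt1, the maintenance methyltransferase, was at 155 and 209 TPM (182 ± 37.8, SD, n = 2), from 44991 and 76555 counts. Uhrf1 was the higher of the pair in replicate 1 and Dnmt1 in replicate 2, so their order over all transcripts was not fixed by these data. In complete coding transcripts alone, Dnmt1 was the higher in both, at 155 against 106 TPM and 209 against 136 TPM. Among the 9150 detected genes, Uhrf1 stood at percentile 92.2 and Dnmt1 at percentile 91.7 by mean TPM. Uhrf1 lies at chr17:56303321-56323486 on the plus strand and Dnmt1 at chr9:20907209-20959888 on the minus strand of mm10.

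Uhrf2, a paralogue of UHRF1 that binds hydroxymethylated DNA and does not replace UHRF1 in maintenance, was at 19.12 and 13.69 TPM (16.4 ± 3.84, SD, n = 2), from 2196 and 2321 counts. It lies at chr19:30030513-30093722, plus strand. The Uhrf1 level was 9.89 times that of Uhrf2 in replicate 1 and 14.6 times in replicate 2. On the log2 scale this ratio was 3.59 ± 0.40 (SD, n = 2).

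The catalytic centre of the DNA methyltransferases is a cysteine that attacks the cytosine ring. The coding sequence around its codon is shown for the 3 active enzymes, to give how far these genes differ where their function is shared. Each window is 51 bases of the GENCODE M21 transcript (mm10), 5′ to 3′ in the sense of the gene, with the cysteine codon in capitals. The Dnmt1 window is at chr9:20911789-20911839 (minus strand, coding exon 32 of Dnmt1-201), the Dnmt3a window at chr12:3902402-3902452 (plus strand, coding exon 17 of Dnmt3a-201) and the Dnmt3b window at chr2:153677192-153677242 (plus strand, coding exon 17 of Dnmt3b-201).
Dnmt1: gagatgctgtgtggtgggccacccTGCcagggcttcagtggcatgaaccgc
Dnmt3a: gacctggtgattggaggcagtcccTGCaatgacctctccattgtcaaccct
Dnmt3b: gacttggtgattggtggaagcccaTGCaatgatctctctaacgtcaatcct
The Dnmt3a and Dnmt3b windows share 41 of 51 bases (80.4%), and the Dnmt1 and Dnmt3b windows share 27 of 51 (52.9%). Over whole transcripts, none of the 3 genes shares 50 or more stretches of 31 bases with another of them.

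Dnmt3b, 1 of the enzymes that methylate new sites, was at 27.5 TPM in replicate 1 and 32.8 TPM in replicate 2 (30.1 ± 3.77, SD, n = 2), from 5998 and 9036 counts. This is percentile 62.8 of the detected genes. The gene lies at chr2:153649450-153687730 on the plus strand. Dnmt3a, the paralogue best known from blood stem cells, was listed at 0.04 TPM in both libraries. That level came from 3 counts in replicate 1 (exact 95% Poisson interval 0.619 to 8.77 counts) and 5 in replicate 2 (1.62 to 11.7). Both intervals cover counting error only. Dnmt3a (chr12:3806007-3914443, plus strand) was therefore at or near the limit that the depth allows, while its paralogue Dnmt3b had 5998 and 9036 counts.

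Dnmt3l, a catalytically inactive partner that stimulates the DNMT3 enzymes in germ cells and embryonic stem cells, had 0 counts in both libraries. It lies at chr10:78041947-78063622 on the plus strand. Dnmt3c, a rodent DNMT3B duplicate active in the male germ line, had 0 and 3 counts. Dnmt3c shares 699 stretches of 31 bases with Dnmt3b transcripts, so its few counts could have come from either gene. Trdmt1, a family relative that methylates transfer RNA, was at 0.42 and 0.55 TPM. The authors' posterior mean TPM values for the absent genes were higher than their TPM, at 0.53 and 0.43 for Dnmt3a and 0.41 and 0.34 for Dnmt3l. Dnmt3l received these values with 0 counts, so they were not read as RNA.

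Dnmt1 exceeded Dnmt3a plus Dnmt3b 5.64 times in replicate 1 and 6.36 times in replicate 2. On the log2 scale the ratio was 2.58 ± 0.12 (SD, n = 2). This compares all transcripts, and for Dnmt3b most of them were not of the catalytic form.

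Dnmt3b is known for alternative splicing near its 3′ end, and forms that lack part of the methyltransferase region are known to be inactive while still able to bind the other DNMT3 proteins. In these libraries such forms held most of the gene's TPM. Transcripts without the complete region took 85.2% in replicate 1 and 84.2% in replicate 2 (84.7% ± 0.764, SD, n = 2), or 23.4 and 27.6 TPM. Transcripts with the complete region took 14.7% and 15.6%, or 4.03 and 5.10 TPM. The libraries differed by less than 2 percentage points, while the forms differed more than 5-fold in each.

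The truncated share came from a pair of annotated transcripts with the same coding sequence of 776 codons. Dnmt3b-205 held 44.5% and 37.2% of the gene's TPM, and Dnmt3b-206 held 40.7% and 46.9%. They differ in a noncoding exon near the start, and which of them was higher changed between the libraries, whereas their sum did not. The full-length Dnmt3b-201, of 860 codons, held 14.5% and 15.6%. The exon 9-skipping full-region form Dnmt3b-209 held 0.17% and 0%, and the other 6 coding transcripts were at 0% in both. In the gene numbering used here, the 22 coding exons of Dnmt3b-201 are counted from the start codon.

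Dnmt3b-205 and Dnmt3b-206 lack coding exons 9, 20 and 21, the pattern known as the Dnmt3b3 form. They also hold only 85 of the 88 bases of coding exon 15. That difference was tolerated in classing the forms and is not printed below. Coding exon 9 (chr2:153670849-153670908, 60 bases, 20 codons) was absent from transcripts holding 85.4% and 84.2% of the TPM. Coding exons 20 (chr2:153683608-153683677, 70 bases) and 21 (chr2:153684359-153684477, 119 bases) were absent from 85.2% and 84.2%. The catalytic cysteine codon is in coding exon 17 and was retained by all of these transcripts. The joint length of exons 20 and 21 is 189 bases, or 63 codons, so their loss keeps the reading frame.

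The sequences of the skipped exons are printed because these exons separate the main forms. Capitals mark the exons that Dnmt3b-205 and Dnmt3b-206 leave out, and 15 bases of the neighbouring coding exons stand in lower case on each side. All are from spliced GENCODE M21 transcripts on the plus strand of mm10 with introns removed, spanning chr2:153670433-153672230 for exon 9 and chr2:153678542-153686272 for exons 20 and 21. The last line is the junction of 30 bases that Dnmt3b-205 makes in place of them, where coding exon 19 runs into coding exon 22.
Dnmt3b coding exon 9: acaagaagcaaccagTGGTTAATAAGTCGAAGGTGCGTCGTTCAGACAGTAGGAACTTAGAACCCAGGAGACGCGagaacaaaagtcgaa
Dnmt3b coding exons 20 and 21: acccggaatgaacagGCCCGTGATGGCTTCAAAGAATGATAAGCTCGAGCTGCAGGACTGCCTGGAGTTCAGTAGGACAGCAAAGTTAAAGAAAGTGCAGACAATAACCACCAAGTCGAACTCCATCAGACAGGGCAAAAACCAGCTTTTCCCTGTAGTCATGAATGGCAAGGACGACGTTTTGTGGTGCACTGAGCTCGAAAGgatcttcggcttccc
Dnmt3b-205 junction: acccggaatgaacaggatcttcggcttccc
Among the annotated Dnmt3b transcripts, the junction is made by those that lack coding exons 20 and 21, and the capitals of exons 20 and 21 are held by those with the complete region. Exon 9 is skipped independently in the annotation, since Dnmt3b-204 and Dnmt3b-208 hold it and lack exons 20 and 21. The deposited tables hold the model's assignment and not the junction reads.

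**Figure D2:**
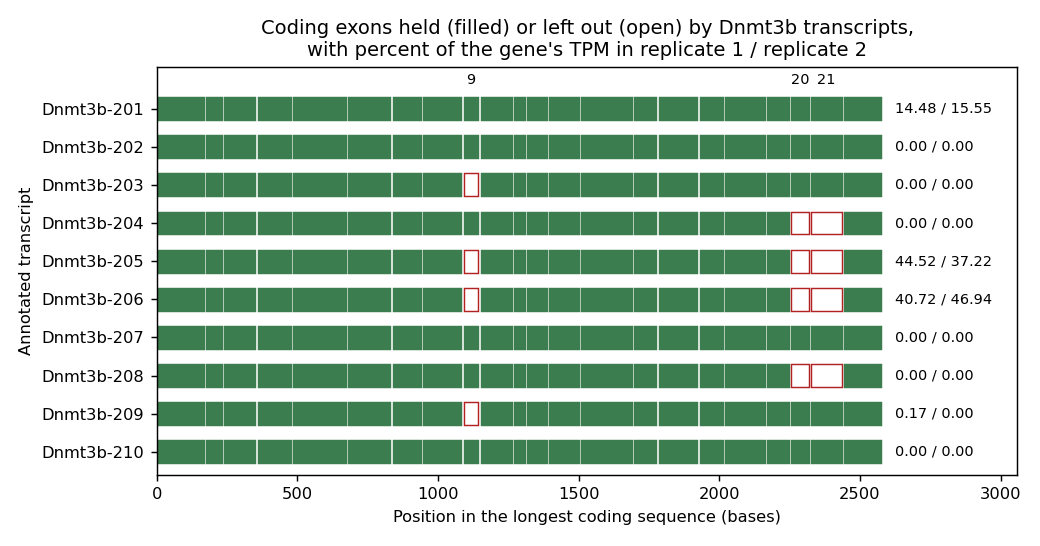
Coding exons held (filled) or left out (open, red outline) by each complete coding transcript of Dnmt3b, drawn to scale along the longest coding sequence in bases. The numbers at the right are the percent of the gene's TPM in replicate 1 and replicate 2, and the transcripts lacking exons 20 and 21 hold 85.2% and 84.2% in sum.

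When only Dnmt3b transcripts with the complete methyltransferase region were counted, Dnmt1 exceeded Dnmt3a plus Dnmt3b 38.1 times in replicate 1 and 40.6 times in replicate 2. The log2 ratio was then 5.30 ± 0.06 (SD, n = 2). Dnmt3a added 0.04 TPM or less to the catalytic de novo total in either library. Its own split between long and short forms, which start at different promoters, rested on 3 and 5 counts and could not be read.

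Dnmt1 RNA was itself split between forms. The long form, Dnmt1-201 with 1620 codons, held 62.9% of the gene's TPM in replicate 1 and 67.0% in replicate 2 (64.9% ± 2.91, SD, n = 2). The short form of 1501 codons, which begins at a downstream methionine, held 37.1% and 33.03%. A short protein of this kind is known from oocytes. Almost all of its RNA here was given to Dnmt1-202 (35.5% and 31.9%), annotated as starting at position 20959888 of chromosome 9, upstream of the Dnmt1-201 start at 20952979. The forms differ only in the exon they start with, so the split rests on reads from those exons and on the authors' model.

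Tet3, the TET enzyme that acts in the zygote, was at 39.2 TPM in replicate 1 and 69.1 TPM in replicate 2 (54.1 ± 21.1, SD, n = 2). These levels came from 18531 and 37175 counts, and the mean stood at percentile 74.7 of detected genes. Tet2, the TET gene mutated in blood cancers, was at 2.02 and 2.56 TPM (2.29 ± 0.382, SD, n = 2), from 1019 and 1635 counts, or percentile 9.16. Tet1, which is high in embryonic stem cells, had 0 counts in replicate 1 and 1 count in replicate 2 (exact 95% Poisson interval 0.0253 to 5.57 counts). Tet3 lies at chr6:83362373-83459084, Tet2 at chr3:133463679-133545139 and Tet1 at chr10:62804570-62908996, all on the minus strand.

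Tet3 exceeded Tet2 19.4 times in replicate 1 and 27.0 times in replicate 2. Tet2 made up 4.90% and 3.57% of the summed TET TPM (4.24% ± 0.939, SD, n = 2), and Tet3 made up 95.1% and 96.4%. The TPM of Dnmt1, Dnmt3a and Dnmt3b together was 4.43 times the TET sum in replicate 1 and 3.37 times in replicate 2. On the log2 scale this was 1.95 ± 0.28 (SD, n = 2).

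The TET enzymes hold iron through a histidine and an aspartate of a short conserved stretch. The windows of 57 bases around their codons show how far the 3 genes differ where their function is shared, and the capitals mark those codons. They are from GENCODE M21 on mm10, all from genes on the minus strand and printed 5′ to 3′ in the sense of the gene: chr10:62814442-62814498 for Tet1 (Tet1-206, coding exon 10), chr3:133471346-133471402 for Tet2 (Tet2-201, coding exon 7) and chr6:83373200-83373256 for Tet3 (Tet3-203, coding exon 9).
Tet1: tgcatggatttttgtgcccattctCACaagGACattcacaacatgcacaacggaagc
Tet2: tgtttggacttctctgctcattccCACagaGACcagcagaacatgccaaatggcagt
Tet3: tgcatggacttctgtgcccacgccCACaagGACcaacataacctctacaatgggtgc
Tet1 and Tet3 share 42 of 57 bases (73.7%), and Tet2 shares 39 of 57 (68.4%) with each of them.

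TET1 and TET3 can also carry a CXXC zinc finger, which binds DNA rich in CpG and which TET2 lacks. The Tet3 gene makes transcripts with and without it. Tet3-203, with the finger and 1803 codons, held 46.3% of the gene's TPM in replicate 1 and 38.2% in replicate 2. Tet3-202, without it and with 1668 codons, held 53.7% and 46.9%. Both forms were given similar levels, 18.1 and 26.4 TPM with the finger and 21.1 and 32.4 TPM without it. By expected counts the form without the finger held a larger share, 68.3% and 66.3%. Its transcript is longer (10904 against 5944 bases), which raises its counts, and its TPM was also the higher in both libraries. Their annotated starts also differ, at 83456392 of chromosome 6 for Tet3-203 and 83441675 for Tet3-202. The split therefore rests also on reads outside the finger and on the authors' model.

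A part of the finger, in coding exon 1 of Tet3-203 (chr6:83454828-83454884, minus strand), is printed in the spans of 57 bases below. Capitals mark the cysteine codons within each span, which need not hold every cysteine that binds the finger's zinc. The Tet1 counterpart, from a gene with 0 counts in replicate 1 and 1 in replicate 2, is at chr10:62878239-62878295 in coding exon 1 of Tet1-206, and the spans share 39 of 57 bases.
Tet3: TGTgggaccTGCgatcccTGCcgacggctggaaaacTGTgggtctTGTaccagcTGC
Tet1: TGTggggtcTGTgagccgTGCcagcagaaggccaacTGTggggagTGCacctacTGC
Transcripts that hold the Tet3 span were the 38.2% to 46.3% given above.

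The remaining Tet3 RNA of replicate 2, 14.9% of the gene's TPM, was given to the noncoding Tet3-201. That transcript had 0 counts in replicate 1 and 1731 in replicate 2. It is 2523 bases long, and the gene's mean effective length was 8465 bases in replicate 1 and 7611 in replicate 2. With the coding forms alone, Tet3 was at 39.2 and 58.8 TPM.

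Tdg, the glycosylase that removes the products of TET oxidation, was at 16.8 TPM in replicate 1 and 17.1 TPM in replicate 2 (17.0 ± 0.233, SD, n = 2). The counts were 1649 and 2412, and the level was at percentile 49.9 of the detected genes. The gene lies at chr10:82629828-82650799 on the plus strand. Tdg has processed copies elsewhere in the genome, and the authors' model divides shared reads among them. Gm9855, a pseudogene at chr10:42054113-42055306, shares 971 stretches of 31 bases with Tdg transcripts and was given 465 and 2142 counts, or 7.93 and 28.95 TPM. It was called higher in replicate 2 by the test described below, 3.26-fold in scaled counts (adjusted p = 1.82e-145, exact conditional binomial test). Tdg-ps on chromosome 15 and Gm5597 on chromosome 7 had 12.7 counts or fewer. Tdg and these 3 copies together stood at 24.8 and 46.2 TPM, of which Tdg took 67.8% and 37.1%. How far reads of Tdg and Gm9855 were exchanged was not tested.

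For Uhrf1, Uhrf2 and Tdg, a large part of the TPM was assigned to short transcripts annotated as noncoding or with a retained intron. Complete coding transcripts held 56.1% and 68.1% of the Uhrf1 TPM, which is 106 and 136 TPM. They held 23.0% and 36.6% for Uhrf2, or 4.40 and 5.01 TPM, and 32.5% and 45.2% for Tdg, or 5.45 and 7.74 TPM. For Dnmt3b the share was above 99% in both libraries. For Dnmt1 and Tet2 it was 100%, which the annotation fixes, since all their quantified transcripts have a complete coding sequence. The median over the 8581 detected protein-coding genes was 97.4% in replicate 1 and 97.0% in replicate 2. Over the same genes, 24.0% were under 50% in both libraries, so the low shares of Uhrf2 and Tdg are not rare in these tables.

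Single short transcripts carried most of this. Uhrf1-206, a retained-intron model of 949 bases, held 43.1% of the Uhrf1 TPM in replicate 1 and 31.4% in replicate 2. Uhrf2-202 (1464 bases, retained intron) held 59.2% and 43.0%, and Tdg-203 (1244 bases, noncoding) held 66.6% and 50.2%. All of these shares were lower in replicate 2. TPM weights short transcripts up, and by expected counts the complete coding share was 84.6% and 90.2% for Uhrf1, 38.0% and 51.7% for Uhrf2, and 57.9% and 70.5% for Tdg. In complete coding transcripts alone, Uhrf1 exceeded Uhrf2 24.1 times in replicate 1 and 27.2 times in replicate 2.

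**Figure D3:**
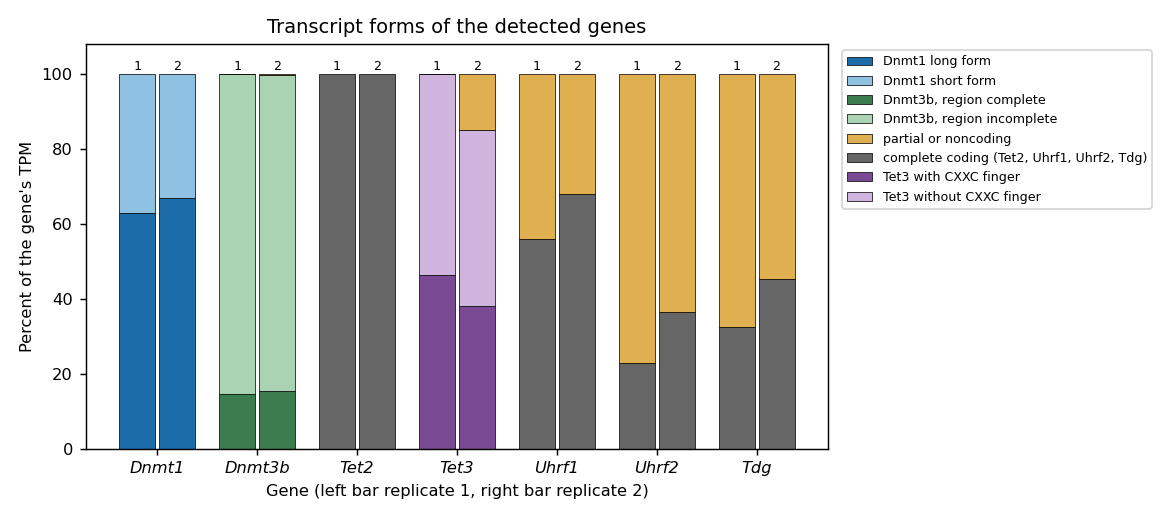
Percent of each detected gene's TPM in its transcript forms, with the left bar replicate 1 and the right bar replicate 2. Light green, the Dnmt3b forms with an incomplete methyltransferase region, fills 85.2% and 84.2%, and yellow, partial or noncoding transcripts, is largest for Uhrf2 and Tdg.

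The order of the detected genes by TPM was Uhrf1 and Dnmt1, then Tet3, Dnmt3b, Tdg and Uhrf2, and last Tet2. Neighbours in this order did not overlap between libraries except for Uhrf1 with Dnmt1 and for Tdg with Uhrf2, which changed places between the libraries. The lowest Tet3 value, 39.2 TPM, was above the highest Dnmt3b value, 32.8 TPM.

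The counts of the libraries were compared gene by gene, as a measure of how far a level can be trusted. An exact binomial test (two-sided, conditional on the gene's total, with library totals scaled by TMM) was run on rounded expected counts of 11636 genes. A call needed a 2-fold difference or more and a Benjamini-Hochberg adjusted p under 0.05. The error it allows for is that of counting, and its subject is this pair of libraries. Of all genes tested 5.77% (671) were called, 3.92% as higher in replicate 2 and 1.85% as higher in replicate 1. Of the 7 detected genes of the set, 0 were called in either direction. Dnmt3a, Dnmt3l and Tet1 had too few counts to be tested. With no fold requirement 64.8% of all genes had an adjusted p under 0.05, and 6 of the 7 did, 5 of them higher in replicate 2. A shift of this kind was therefore common in these tables, and the 6 of 7 were not read as a result about the set. The share over all genes was not split by direction at this threshold, so no trend was read from the 5.

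Tet3 had the largest difference of the set, with a log2 ratio of replicate 2 over replicate 1 of 0.51, or 1.42-fold in scaled counts. Its TPM differed 1.76-fold, and the shorter effective length of replicate 2 moves TPM in that direction. Uhrf2 was the only one lower in replicate 2 under the test, with a log2 ratio of -0.42. Dnmt1 had 0.27, Tet2 0.18 (adjusted p = 0.00284 in the exact conditional binomial test), Uhrf1 0.11 and Dnmt3b 0.09 (adjusted p = 0.000267). Tdg had 0.05 and did not pass (adjusted p = 0.356). The median log2 ratio was 0.11 over the 7 genes and 0.01 over all genes tested.

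**Figure D4:**
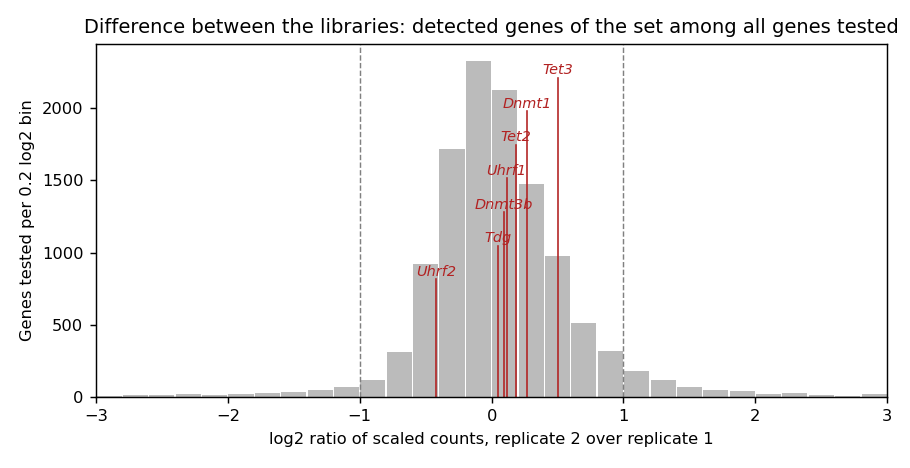
Log2 ratio of scaled counts, replicate 2 over replicate 1, as a histogram of the 11636 genes tested (grey, 0.2 log2 units per bin), with the 7 detected genes of the set as red lines whose heights only separate the names. Dashed lines mark 2-fold, and all 7 genes lie between them, from -0.42 for Uhrf2 to 0.51 for Tet3.

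Partners of maintenance methylation were mostly present, with 10 of 12 detected against 40.0% of protein-coding genes. Trim28, a corepressor that guards methylation at imprinted loci and retroelements, was highest at 199 and 222 TPM. Cdca7 (82.7 and 91.6 TPM) and Hells (13.9 and 17.6 TPM), which form a remodelling complex needed for methylation, were both detected. So was Lig1, the replication ligase that UHRF1 binds, at 71.4 and 90.1 TPM. Pcna, the sliding clamp, differed most between the libraries in TPM among those named, at 37.9 and 78.4. Dppa3, which removes UHRF1 from chromatin in oocytes, and Zfp57, which binds methylated imprinted regions with TRIM28, had 0 counts in both libraries. None of the 10 with enough counts to be tested was called different between the libraries, against 5.77% of all genes tested.

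Of 12 listed genes, which are readers of methylated DNA, their relatives and complex partners, 11 were detected, against 40.0% of protein-coding genes. A place on this list does not mean that a protein, such as MBD6, MBD3 or MBD5, binds methylated DNA. Mbd6 was at 299.8 and 243.7 TPM, Mbd3 at 268 and 245, and Mbd2, which joins the NuRD complex to methylated DNA, at 164 and 104. Mbd5 was at 1.03 and 0.75 TPM and so fell short in replicate 2. All 12 were tested and none was called, against 5.77% of all genes tested.

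Base excision repair after TDG was represented by 14 detected genes of 18, a list that also holds the cytosine deaminases and the Gadd45 genes. The share detected over all protein-coding genes was 40.0%. Apex1, the endonuclease that follows a glycosylase, was at 195 and 189 TPM, Xrcc1 at 174 and 139 and Parp1 at 126 and 148. Apobec2 had 2 counts in replicate 1 and 0 in replicate 2. Apobec1 (0.42 and 0.52 TPM) and Neil2 (0.39 and 0.34 TPM) were also under 1 TPM in both. Of the 18, 16 had enough counts to be tested and none was called, against 5.77% of all genes tested.

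Supply of the methyl donor and of the TET cofactors was covered by 18 genes, of which 16 were detected. Of the 16 with enough counts to be tested, 0 were called. Over all protein-coding genes 40.0% were detected, and 5.77% of all genes tested were called. Shmt2, the mitochondrial enzyme that feeds serine into the folate cycle, was highest at 421 and 517 TPM. Mat2a and Mat2b, subunits of the enzyme that makes the methyl donor S-adenosylmethionine, were at 13.6 and 23.4 TPM and at 49.1 and 55.5 TPM. Mat1a, the liver counterpart, had 0 and 1 counts. Idh2, a mitochondrial source of the TET cosubstrate 2-oxoglutarate, was at 50.3 and 53.3 TPM, against 1.24 and 1.96 for Idh1. Cxxc5, which has a CXXC finger related to that of the TET proteins, was at 59.4 and 57.2 TPM, and Cxxc4, whose gene neighbours Tet2, had 0 counts.

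Germline genes known to be silenced by promoter methylation in somatic cells were at or near 0. Of 10 such genes, 0 were detected and 7 had 0 counts in both libraries, among them Dazl, Ddx4 and Sycp3. Of all protein-coding genes 40.0% were detected and 52.1% were under 0.1 TPM in both, as were 8 of these 10. Rhox5 was the highest at 0.40 and 0.20 TPM, from 11 and 7 counts. Of 14 imprinted genes, 3 were detected: Snrpn at 95.02 and 80.66 TPM, Igf2r at 15.6 and 20.5 and Peg3 at 2.15 and 2.46. This list holds both protein-coding and noncoding genes. The share detected was 40.0% over protein-coding genes and 21.1% over all gene entries, noncoding ones included. H19, Igf2, Meg3 and Peg10 had 0 counts in both. Whether the DNA at any of these genes was methylated cannot be read from RNA.

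The start regions of the 10 genes differ in their content of CpG, the substrate of these enzymes, counted as the letters CG in windows of 300 bases from RefSeq (mm10). The pair reads the same on the other strand. Over 32851 annotated promoters the median was 7. The Tet2 window held 57, as many as or more than 99.9% of promoters, and the annotated Dnmt3a windows held 46, 47 and 18. Dnmt3b held 30, Uhrf2 28, Tdg 26, Tet3 22 and Tet1 17, while the 3 windows of Dnmt3l held 3 to 6. Dnmt1 held 12 at the start of its main transcript Dnmt1-201, 33 at the start of the minor Dnmt1-203 and 2 at the upstream start of Dnmt1-202. Uhrf1 held 12 at its main start and 33 at the start of the minor Uhrf1-202. The Tet3 window is at the start of Tet3-202, and no window covers the start of Tet3-203. The Tet1 window covers the annotated start of neither Tet1-201 nor Tet1-206. The highest counts of the set were at Tet2 and Dnmt3a, both among the 4 genes lowest in RNA. Tet1 and Dnmt3l, also among those 4, held 17 and 3 to 6, and no relation over the 10 genes was tested.

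Other genes share sequence or position with the set. Gm5648, a Uhrf1 pseudogene on the X chromosome with 943 shared stretches of 31 bases, was given 136 and 154 counts, against 24033 and 36742 for Uhrf1. The antisense gene Dnmt3bos had 6 and 1 counts, and Aire, which overlaps Dnmt3l on the other strand, had 7 and 11. Whether the counting used strand is not given in the sources used here, so reads of overlapping genes may have been exchanged, though few were available to exchange.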

How the data were processed

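RNA-seq tables of 2 G1E libraries were used. Per the deposited descriptions, the authors quantified each library alone on mm10 with gene annotation M4; the aligner and counter: not given in the sources used here. The authors' deposited expected counts are estimated read pairs, their TPM is scaled by effective length and library total, and their FPKM by effective length and fragments (not used further). The deposited percent values give each transcript's part of its gene's TPM, and the deposited credibility bounds (a signal scale) accompany posterior mean TPM. Of 43346 gene entries, 42462 matched GENCODE M21 by identifier without version.

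Levels are deposited TPM, with mean and SD. Counts were rounded, scaled by TMM (factors 0.960 and 1.04; edgeR 4.0.16, R 4.3.3) and tested where either library had 10 counts or more. The test was tried on simulated data. A Dnmt3b transcript counted as complete when it held the last 8 of the 22 coding exons, since the PCQ motif first planned as anchor is absent from Dnmt3b; a shift of 3 bases at 1 acceptor was tolerated. Copies share 50 or more stretches of 31 bases. Named genes are the 10 genes, genes of the lists, copies and overlapping genes; some list genes are not reported here. The genes and lists were chosen with earlier results of these data known. Scripts ran on SciPy 1.17.1, NumPy 2.4.6, pandas 2.3.3, matplotlib 3.10.9 and Python 3.11.15.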

Additional observations from a re-analysis of the deposited data

How the results depend on the processing

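The number of detected genes stayed at 7 in each library alone, at 0.5 TPM, with posterior means and with complete coding transcripts, and was 6 at 5 TPM. Counting only Dnmt3b with the complete region, chosen after seeing the data, moved the log2 ratio of Dnmt1 to Dnmt3a plus Dnmt3b from 2.58 to 5.30, and complete coding transcripts, also chosen then, moved that of Uhrf1 to Uhrf2 from 3.59 to 4.68. Shares of expected counts gave 83.8% for the truncated Dnmt3b forms and 29.2% for the short form of Dnmt3a, against 84.7% and 10.5% of TPM. The last rests on 3 and 5 counts, and with coding transcripts only it could not be computed. With no fold requirement 6 genes were called between the libraries, against 0 otherwise, also with edgeR. In each library alone the log2 ratios were 2.50 to 2.67 (Dnmt1 to Dnmt3a plus Dnmt3b), 1.75 to 2.15 (DNMT to TET) and 3.31 to 3.87 (Uhrf1 to Uhrf2), the Tet2 share was 3.57% to 4.90%, the truncated Dnmt3b share 84.2% to 85.2% and the short Dnmt3a share 0% to 21.1%. None reversed. The difference between the libraries needs both and has no such check. No paired analysis was possible because there was 1 group.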
